A study of Homo sapiens with 8 samples.

Results

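The hairpins of miR-424, miR-503, miR-542 and miR-450 form a cluster on the X chromosome that yields 7 mature miRNAs examined here: hsa-miR-424-5p, hsa-miR-424-3p, hsa-miR-503-5p, hsa-miR-542-3p, hsa-miR-542-5p, hsa-miR-450a-5p and hsa-miR-450b-5p. These were taken by name from a table of 2588 mature miRNA names, and entries that share a name were summed. Small RNA-seq had been performed on parental cells of 4 human tumor-derived lines, ES-2 from ovarian cancer, MV-3 from melanoma, Huh-7 from hepatocellular carcinoma and A-549 from lung adenocarcinoma. Each line had 2 replicate libraries, giving 8 in all. The cells of all lines were grown in DMEM with 10% FBS and harvested 48 h after seeding, no line was treated, and each library was made from 50 ng of total RNA. Each tumor type is represented by a single established line, so line and tumor type cannot be told apart. The comparisons addressed how far the miRNAs of one genomic cluster rise and fall together between lines, and how their ratios differ.

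MiRNA hairpins that lie close together on one strand are often transcribed as one primary transcript, from which each hairpin is cut separately and processed to mature miRNAs of its 5p and 3p arms. A mature miRNA guides Argonaute proteins to mRNAs that pair with its seed, the bases near its 5′ end. MiR-424-5p and miR-503-5p are known as inhibitors of cell cycle progression that target cyclin mRNAs, and miR-424-5p carries the seed of the miR-15/16 family. MiR-542-3p is known to target the mRNA of survivin, an inhibitor of apoptosis. Only mature miRNAs were measured here, not the primary transcript.

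In GENCODE release 44 on GRCh38, all 6 hairpins lie on the minus strand of chromosome X within 6527 bases. Transcription first reaches MIR424 at chrX:134546614-134546711 and, 215 bases further, MIR503 at chrX:134546328-134546398. These are called the upstream hairpins below. After a gap of 4890 bases follow the downstream hairpins, MIR542 at chrX:134541341-134541437, MIR450A2 at chrX:134540508-134540607, MIR450A1 at chrX:134540341-134540431 and MIR450B at chrX:134540185-134540262. The noncoding gene MIR503HG, regarded as the host of the cluster, is annotated at chrX:134543119-134546642. It contains MIR503, which overlaps an exon in 1 of its 10 transcripts, and shares 29 bases with MIR424, there overlapping an exon in 3 transcripts. Its annotated end lies 1681 bases before MIR542, so the 4 downstream hairpins are outside of the gene as annotated.

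**Figure D1:**
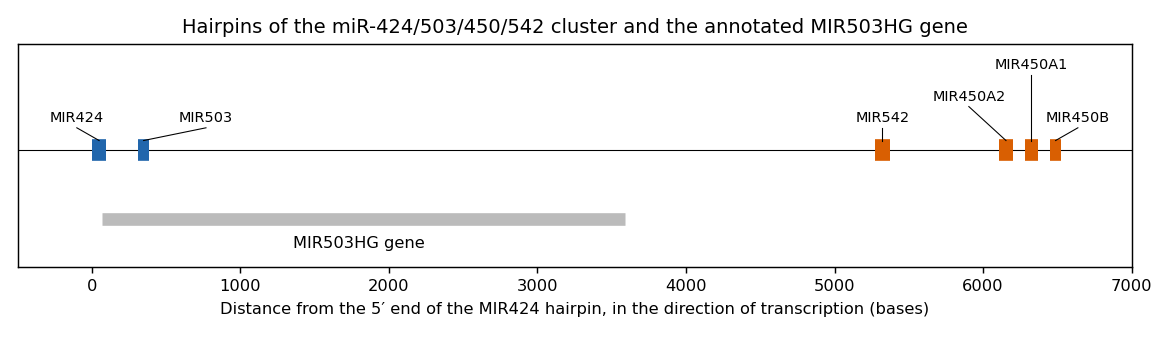
Map of the cluster drawn to scale along the direction of transcription, with the x axis giving the distance in bases from the 5′ end of MIR424, boxes for the hairpins (blue, upstream; orange, downstream) and a grey bar for the annotated MIR503HG gene. MIR424 and MIR503 lie at or in MIR503HG, whereas MIR542 starts at 5274 bases and MIR450B at 6449 bases, beyond the end of the gene at 3592 bases.

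The mature sequences of 6 of the 7 members in RefSeq (GRCh38.p14) are shown because their seeds set apart what are otherwise neighbours. Capitals mark the seed, bases 2 to 8 from the 5′ end.
miR-424-5p: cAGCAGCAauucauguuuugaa
miR-503-5p: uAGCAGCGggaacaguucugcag
miR-424-3p: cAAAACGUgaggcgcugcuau
miR-542-5p: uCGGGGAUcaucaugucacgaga
miR-450a-5p: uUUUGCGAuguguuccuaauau
miR-450b-5p: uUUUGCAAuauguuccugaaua
MiR-424-5p shares its seed with 6 other mature miRNAs of the table, miR-15a-5p, miR-15b-5p, miR-16-5p, miR-195-5p, miR-497-5p and miR-6838-5p. The seed of miR-503-5p differs from it at the last position (A8G, counted from the 5′ end, miR-424-5p first), and C1U and A9G are the other differences in the first 9 bases. Compared position by position without a gap, miR-450a-5p and miR-450b-5p differ at 6 of 22 positions (G7A, G10A, A18G, U20A, A21U and U22A, miR-450a-5p first), of which G7A changes the seed. With a gap allowed, an inserted G before A18 of miR-450a-5p accounts for A18G, U20A, A21U and U22A together. No other name in the table with a mature sequence in this reference had the seed of miR-503-5p, miR-424-3p, miR-542-5p, miR-450a-5p or miR-450b-5p. Names without such a sequence, miR-542-3p among them, could not be compared.

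A few hairpins are printed to show where the counted arms sit, with the annotated mature arms in capitals: MIR424, whose arms were both abundant, and MIR450A1 and MIR450B, whose 5p arms are the most similar members.
MIR424: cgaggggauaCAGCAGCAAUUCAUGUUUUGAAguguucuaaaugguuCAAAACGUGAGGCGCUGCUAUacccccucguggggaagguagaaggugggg
MIR450A1: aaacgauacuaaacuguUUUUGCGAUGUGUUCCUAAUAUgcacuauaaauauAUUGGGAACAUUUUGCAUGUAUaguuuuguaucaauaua
MIR450B: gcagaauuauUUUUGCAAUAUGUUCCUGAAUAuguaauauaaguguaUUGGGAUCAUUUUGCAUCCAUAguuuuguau
MiR-450a-5p has 2 entries in the table, for MIR450A1 and MIR450A2, which held 1081 and 1015 reads over all libraries. Both entries stand for the same mature miRNA, and only their sum is used. Because miR-450a-5p and miR-450b-5p are so similar, their values as separate miRNAs are uncertain, and how far reads of one were counted for the other was not tested.

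The libraries held 1173902 to 2670030 miRNA reads, and the cluster took 0.132% to 0.313% of them. Levels are given as normalised CPM, the reads per 1000000 miRNA reads divided by the TMM factor of the library. The factors ranged from 0.593 in A-549 to 1.70 in Huh-7, and miR-21-5p alone took 64.2% to 65.0% of the reads in A-549 against 27.0% to 33.3% elsewhere. Levels per 1000000 reads without the factor are therefore given as library CPM where they change an order. As a check of the labels, all 4 hepatocyte miRNAs were highest in Huh-7, with summed levels of 94976 to 98543 normalised CPM there, 7561 to 7826 in A-549, 153 to 167 in ES-2 and 162 to 192 in MV-3. In A-549 the sum came from miR-192-5p (4540 on average) and miR-194-5p (3148). The 5 epithelial miRNAs summed to 2273 to 2339 in Huh-7, 1605 to 1726 in A-549, 56.0 to 60.4 in ES-2 and 29.6 to 46.1 in MV-3. The 3 melanocyte miRNAs, miR-211-5p, miR-514a-3p and miR-509-3p, were at 0 reads in MV-3, so that its label could not be checked by these. Of 4 blood miRNAs, miR-142-3p and miR-142-5p were found in ES-2 alone, at 357 and 171 normalised CPM on average. MiR-223-3p (0 in ES-2) and miR-451a (0.35 in ES-2) were instead highest in A-549, at 0.82 each. This is below the level of 3 reads in either A-549 library (1.85 and 2.45), so the lines cannot be ordered by these. The list summed to 502.8 to 554.0 in ES-2 against at most 3.27 elsewhere. The part of these miRNAs in the results was not tested. The 6 miRNAs of muscle and stroma summed to 2540 to 2664 in A-549, 2170 to 2275 in MV-3, 772 to 827 in ES-2 and 267 to 276 in Huh-7. The sum in A-549 came mostly from miR-143-3p (2561 on average), and that in ES-2 from miR-199a-5p (781). MiR-199a-5p and miR-214-3p were highest in MV-3, at 1135 and 33.4, against 2.26 and 3.68 in A-549.

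In normalised CPM, the upstream members were most abundant in ES-2 and the downstream members in A-549. By library CPM, the summed downstream members were instead higher in Huh-7 (889) than in A-549 (776). In the joint comparison of the 4 lines by limma, 6 of the 6 tested members differed between lines, where 68.2% of the 528 tested miRNAs did (adjusted p below 0.01 by the Benjamini-Hochberg method over all tested miRNAs). The adjusted p ranged from 3.25e-06 for miR-424-3p to 0.000352 for miR-450b-5p. MiR-542-5p had too few reads to be tested. In these bulk libraries, fewer cells with a miRNA and less of it per cell cannot be told apart.

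MiR-424-5p, the member of the miR-15/16 seed family, was at 713 and 664 normalised CPM in the ES-2 libraries, with MV-3 at 168 and 132, Huh-7 at 136 and 107 and A-549 at 627 and 481. MiR-424-3p, the other arm of the hairpin, was at 1350 and 1465 in the ES-2 libraries, with MV-3 at 326 and 368, Huh-7 at 298 and 304 and A-549 at 1084 and 1054. MiR-503-5p was at 1386 and 1319 in the ES-2 libraries, with MV-3 at 395 and 413, Huh-7 at 387 and 340 and A-549 at 1019 and 870. All 3 were thus high in ES-2 and A-549 and low in MV-3 and Huh-7, without overlap between the high and the low pair of lines. The order was ES-2, A-549, MV-3, Huh-7 in each case. Neither MV-3 and Huh-7 for any of the 3 nor ES-2 and A-549 for miR-424-5p passed the limma threshold. By library CPM, ES-2 remained the highest line of all 3 and MV-3 became the lowest, and Huh-7 exceeded A-549 for miR-503-5p.

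The downstream members had another order, which was A-549, Huh-7, MV-3, ES-2 for each of the 3 tested. MiR-542-3p was at 55.5 and 35.9 normalised CPM in the ES-2 libraries, with MV-3 at 88.8 and 85.1, Huh-7 at 150 and 117 and A-549 at 300 and 335. MiR-450a-5p was at 54.8 and 41.6 in the ES-2 libraries, with MV-3 at 69.6 and 51.6, Huh-7 at 124 and 96.0 and A-549 at 374 and 343. MiR-450b-5p, from the next hairpin, was at 59.0 and 107 in the ES-2 libraries, with MV-3 at 104 and 121, Huh-7 at 324 and 255 and A-549 at 580 and 642. A-549 was above every library of the other lines for all 3, and Huh-7 was above MV-3 and ES-2. The ranges of ES-2 and MV-3 overlapped for both miR-450 members but not for miR-542-3p, and this pair of lines did not pass the threshold for any of the 3 by limma on normalised CPM. By library CPM, ES-2 remained the lowest line for all 3, whereas Huh-7 took the place of A-549 as the highest line for miR-542-3p and miR-450b-5p. MiR-542-5p, the other arm of MIR542, had 6 and 0 reads in Huh-7, 2 and 6 in A-549 and none in ES-2 or MV-3, where a count of 0 allows up to 1.31 to 2.56 library CPM (3 reads, counting error only).

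**Figure D2:**
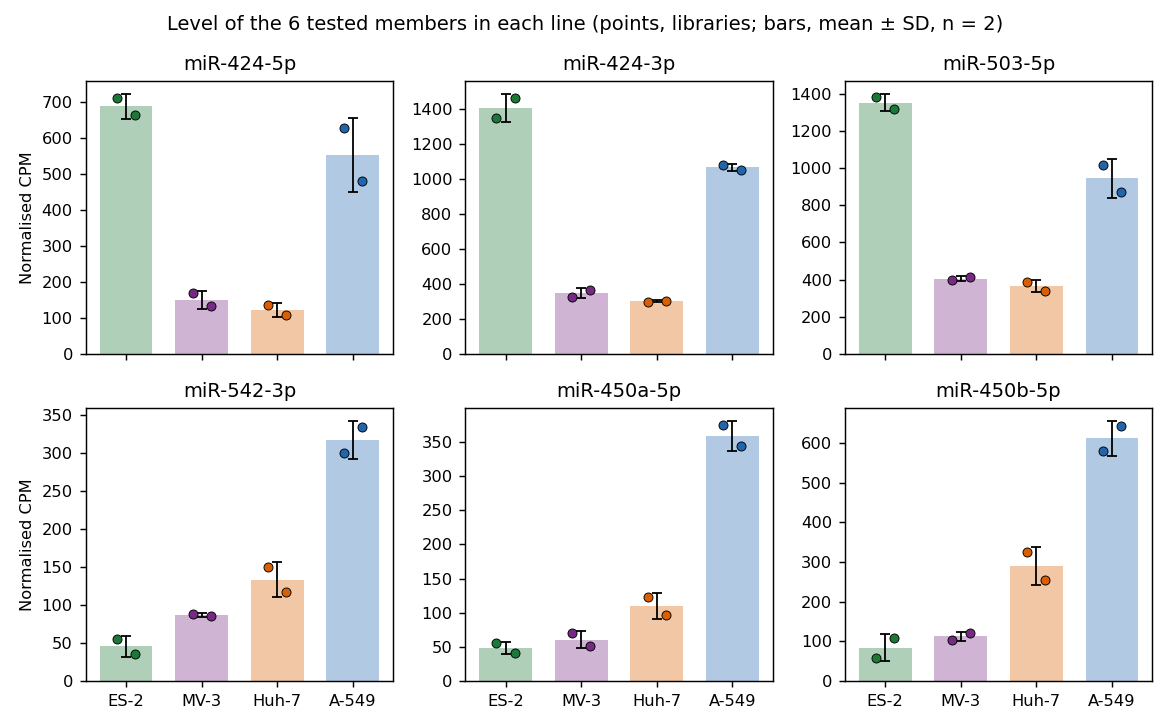
Level of the 6 tested members (y axis, normalised CPM, linear from 0) in the 4 lines (x axis), with points for the 2 libraries and bars for their mean ± SD. In the upper row, ES-2 and A-549 stand above MV-3 and Huh-7, while in the lower row the level is lowest in ES-2 and highest in A-549.

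Between Huh-7 and ES-2 the cluster was split into members that fell and members that rose. All 6 tested members passed the limma threshold, against 49.2% of all tested miRNAs. The 3 upstream members were lower in Huh-7, with a log2 fold change of -2.50 ± 0.19 (SE, adjusted p = 5.52e-05) for miR-424-5p, -2.22 ± 0.09 (2.06e-06) for miR-424-3p and -1.89 ± 0.11 (1.17e-05) for miR-503-5p. The 3 downstream members were higher, by 1.55 ± 0.24 (0.00141) for miR-542-3p, 1.17 ± 0.23 (0.00451) for miR-450a-5p and 1.84 ± 0.29 (0.00154) for miR-450b-5p. The median of all tested miRNAs was 0.34. With library size as the only scaling, which shifts the tested miRNAs by a median of 0.88, both directions and all 6 calls held. Without Huh-7 replicate 1, or in a fit of these 2 lines alone, the 3 upstream members kept their calls and the 3 downstream members lost them, with limma adjusted p between 0.0200 and 0.0424 and between 0.0113 and 0.0139.

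Between A-549 and ES-2, the downstream members differed more than the upstream members. In A-549, miR-542-3p was higher by 2.80 ± 0.24 on the log2 scale (SE, limma adjusted p = 9.75e-05), miR-450a-5p by 2.88 ± 0.23 (7.66e-05) and miR-450b-5p by 2.92 ± 0.29 (0.000215). By normalised CPM, the upstream members were close to their level in ES-2. Their values were -0.32 ± 0.19 (0.206) for miR-424-5p, -0.40 ± 0.09 (0.00911) for miR-424-3p and -0.52 ± 0.11 (0.00643) for miR-503-5p. This made 5 of 6 members called, against 41.3% of all tested miRNAs. The calls of miR-424-3p and miR-503-5p were marginal, since leaving out any 1 of the 8 libraries left 3 members called. With library size only, all 6 members were called, and the upstream members were lower in A-549 by larger values. These were -0.84 (limma adjusted p = 0.00981) for miR-424-5p, -0.91 (0.00031) for miR-424-3p and -1.03 (0.000328) for miR-503-5p.

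Between MV-3 and ES-2 only the upstream members passed the threshold, 3 of 6 members against 25.8% of all tested miRNAs. The log2 fold change in MV-3 was -2.20 ± 0.19 (SE, limma adjusted p = 0.000237) for miR-424-5p, -2.02 ± 0.09 (1.24e-05) for miR-424-3p and -1.74 ± 0.11 (5.21e-05) for miR-503-5p. The values of the downstream members were 0.94 ± 0.24 (0.0224) for miR-542-3p, 0.32 ± 0.23 (0.347) for miR-450a-5p and 0.49 ± 0.29 (0.259) for miR-450b-5p. MiR-542-3p passed with library size only (1.38, adjusted p = 0.00438) and with DESeq2 (0.91, adjusted p = 0.00824), making 4 members called, and the miR-450 members did not pass. The ratio of the downstream to the upstream members, which tests the difference between them over the 4 lines, is given below.

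In the 3 remaining pairs of lines, no member was called lower in the first line. Huh-7 against MV-3 gave 1 call of 6, against 47.0% of all tested miRNAs, for miR-450b-5p at 1.35 ± 0.29 (SE, limma adjusted p = 0.00654), and this call was lost without any 1 library of MV-3, Huh-7 or A-549. The upstream members lay between -0.30 and -0.15 in this pair and were not called, and with library size only they changed sign, to 0.22 for miR-424-5p, 0.32 for miR-424-3p and 0.36 for miR-503-5p. In A-549 against MV-3 all 6 members were higher, against 39.6% of tested miRNAs called, with values from 1.22 ± 0.11 (0.00015) for miR-503-5p to 2.56 ± 0.23 (0.000166) for miR-450a-5p. With library size only, all 6 remained higher but 4 were called, since miR-503-5p came to 0.27 (adjusted p = 0.0845) and miR-542-3p to 0.91 (0.0159). In A-549 against Huh-7, 5 of 6 members were higher, against 52.3% called of all tested, from 1.25 ± 0.24 (0.00349) for miR-542-3p to 2.18 ± 0.19 (0.000106) for miR-424-5p. MiR-450b-5p, at 1.08 ± 0.29 (0.015), did not pass. In this pair too the calls depended on the scaling. With library size only, which shifts the tested miRNAs by a median of -1.33, no member was called. MiR-503-5p (-0.10), miR-542-3p (-0.21) and miR-450b-5p (-0.39) then changed sign.

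**Figure D3:**
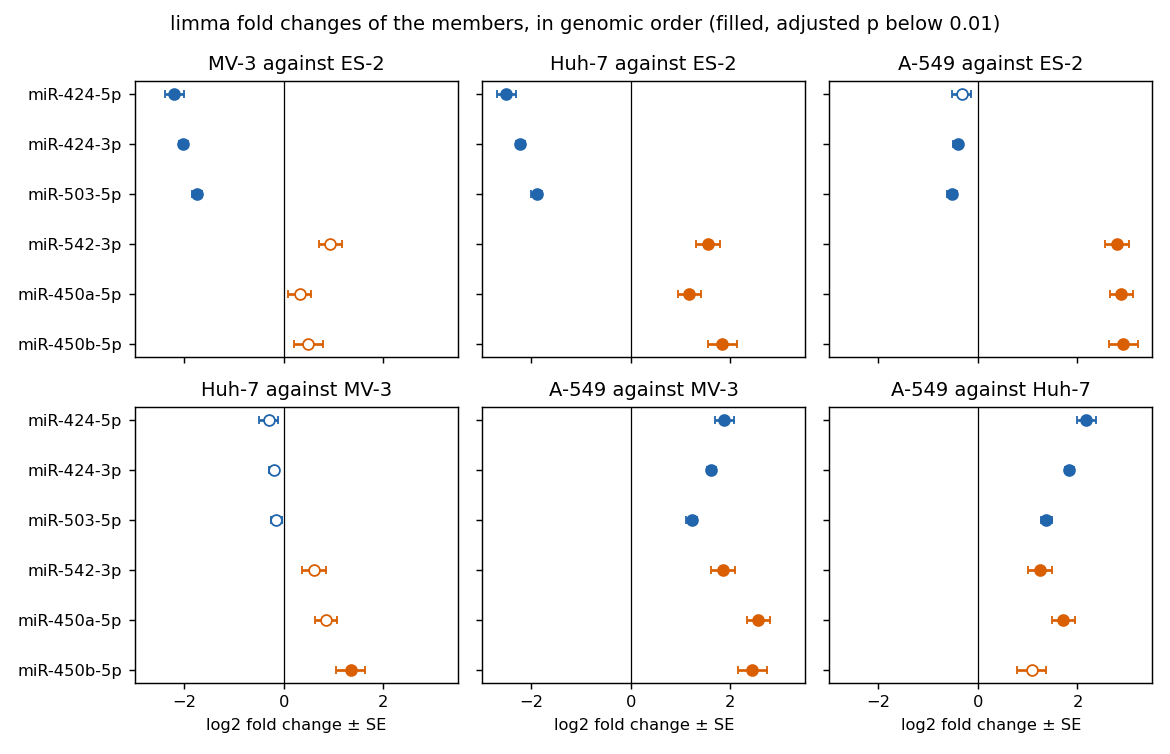
Log2 fold change ± SE (x axis) of the 6 tested members in genomic order from top to bottom (y axis) for the 6 pairs of lines, from limma on log2(normalised CPM + 1). Filled symbols passed an adjusted p of 0.01. In Huh-7 against ES-2 the upstream members (blue) lie between -2.50 and -1.89 and the downstream members (orange) between 1.17 and 1.84.

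Ratios of reads within a library do not depend on its scaling. The summed reads of the downstream members divided by those of the upstream members came to 0.0492 and 0.0537 for ES-2, with MV-3 at 0.295 and 0.282, A-549 at 0.460 and 0.551, and Huh-7 at 0.731 and 0.623. The lines stood apart from each other without overlap of their libraries. ES-2 was lowest by far, and the ratio in Huh-7 was 13.1-fold higher, a log2 difference of 3.71 ± 0.13 (SE). Against ES-2, MV-3 was higher by 2.49 ± 0.13 and A-549 by 3.29 ± 0.13, whereas Huh-7 and A-549 differed by only 0.42 ± 0.13. The lines differed by an exact permutation test over the 105 possible assignments of libraries to lines (p = 0.00952, the smallest the design allows, and 0.0333 after Benjamini-Hochberg adjustment over 7 ratios). Without Huh-7 replicate 1 the exact adjusted p was 0.0667, at a log2 difference of 3.60. With 2 libraries against 2, no single pair of lines could reach an exact p under 0.333.

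In ratios of a single downstream member to miR-424-5p, ES-2 was again the lowest line and Huh-7 the highest. The ratio of miR-450a-5p to miR-424-5p was 0.0774 and 0.0630 for ES-2, with MV-3 at 0.415 and 0.393, A-549 at 0.597 and 0.715, and Huh-7 at 0.911 and 0.895. Again no lines overlapped, with a span of 3.69 on the log2 scale between Huh-7 and ES-2 (exact permutation p = 0.00952, adjusted 0.0333), and again the adjusted exact p was 0.0667 without Huh-7 replicate 1. The ratio of miR-542-3p to miR-424-5p ran from 0.0783 and 0.0545 in ES-2 to 1.104 and 1.092 in Huh-7, with MV-3 (0.530 and 0.647) and A-549 (0.479 and 0.698) overlapping in between. Its span was the largest at 4.07, and its exact permutation p of 0.0286 became 0.0533 after adjustment, which missed the threshold of 0.05.

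Ratios between neighbours spanned less. The ratio of miR-503-5p to miR-424-5p averaged 1.96 for ES-2, with MV-3 at 2.71, Huh-7 at 3.01 and A-549 at 1.71, a span of 0.81 on the log2 scale (exact permutation p = 0.0381, adjusted 0.0533). That of miR-450a-5p to miR-542-3p averaged 1.07, 0.690, 0.822 and 1.13 in the same order of lines, a span of 0.71 (exact p = 0.0381, adjusted 0.0533). The ratio of miR-450b-5p to miR-450a-5p averaged 1.66, 1.86, 2.64 and 1.70, but the 2 libraries of ES-2 alone ranged from 1.08 to 2.57, and the lines could not be distinguished (exact permutation p = 0.619). Both this ratio and that of miR-503-5p to miR-424-5p were higher in replicate 2 than in replicate 1 of every line. How well a miRNA enters a small RNA library can depend on its sequence, so ratios of different miRNAs were compared between lines and not read as molar ratios.

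**Figure D4:**
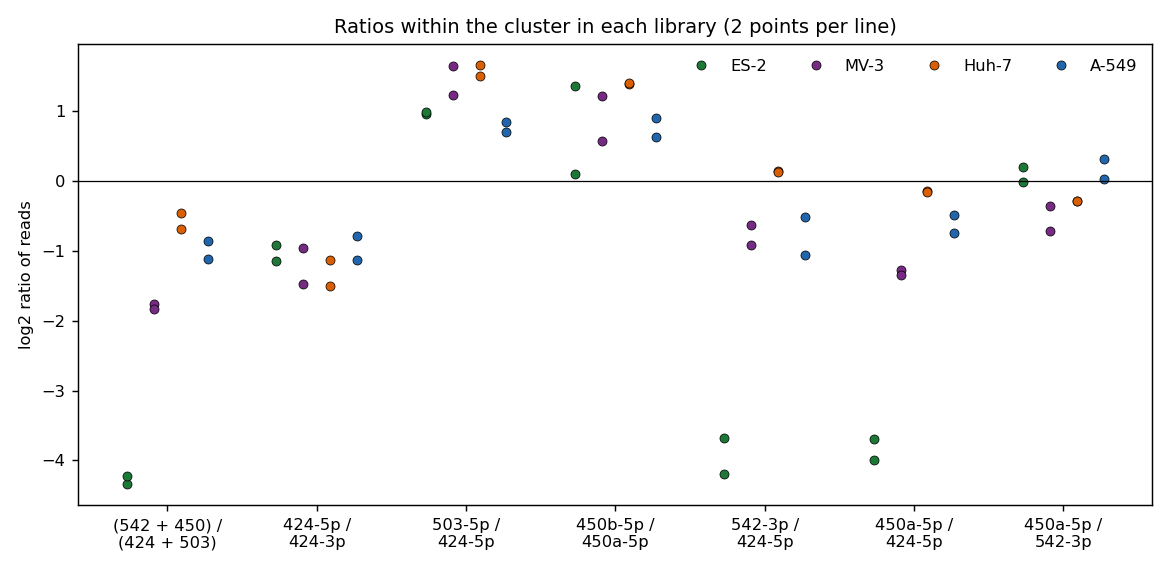
Log2 ratio of reads (y axis) for the 7 ratios that could be tested (x axis, numerator over denominator), with 2 points per line for the 2 libraries. Ratios of a downstream to an upstream member or group lie between -4.34 and -3.67 in ES-2 and above -1.83 in the other lines, while the remaining ratios keep the lines within 0.81 of each other on average.

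The composition of the cluster can be read from the same reads. The downstream members made up 4.89% ± 0.288 (SD, n = 2) of the reads of the 7 members for ES-2, with MV-3 at 22.4% ± 0.542, A-549 at 33.5% ± 2.84 and Huh-7 at 40.3% ± 2.73. The largest part in ES-2 came from miR-424-3p (38.8% ± 2.12) and miR-503-5p (37.3% ± 1.40). In Huh-7, miR-503-5p (27.6% ± 0.461), miR-424-3p (23.0% ± 2.81) and miR-450b-5p (21.9% ± 1.37) were near to each other, whereas miR-450b-5p was at 2.29% ± 0.936 in ES-2. In MV-3 miR-503-5p led with 34.8% ± 0.692, and in A-549 miR-424-3p with 27.7% ± 0.751.

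**Figure D5:**
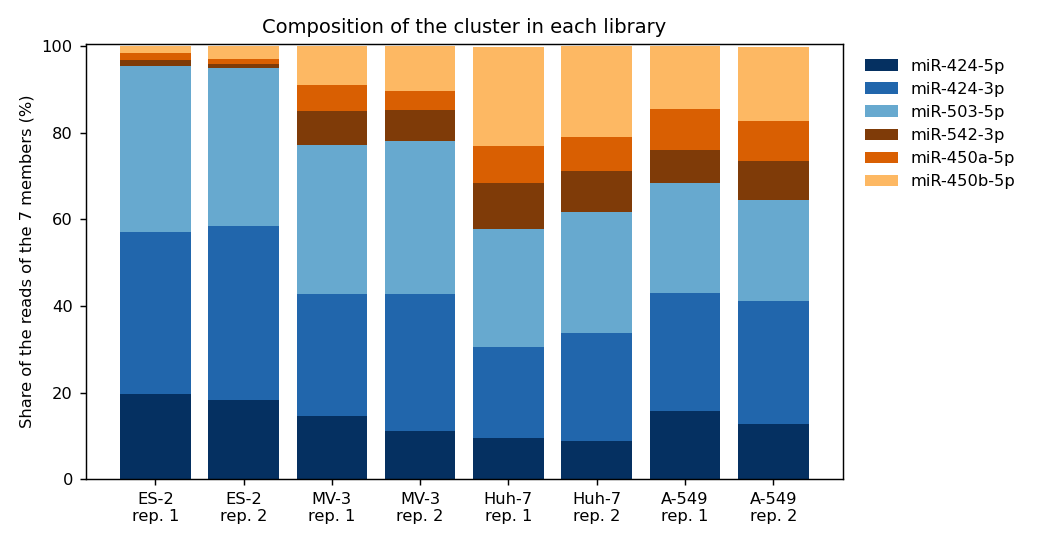
Share of each member in the reads of the cluster (y axis, percent) for the 8 libraries (x axis), with upstream members in blue and downstream members in orange and brown. MiR-542-5p is not drawn, since it made up 0.0812% at most on average. The downstream share is under 6% in both ES-2 libraries and rises through MV-3 and A-549 to Huh-7, where it averages 40.3%.

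The summed level of the cluster also differed between lines. The 7 members summed to 3108 ± 36.3 library CPM in ES-2 (SD, n = 2), 2320 ± 150 in A-549, 2200 ± 170 in Huh-7 and 1350 ± 36.4 in MV-3, a span of 2.302-fold (exact permutation p = 0.0190). In normalised CPM, A-549 and ES-2 were the highest lines and MV-3 the lowest, with a span of 3.32-fold (exact p = 0.00952). On this scale single tested members spanned from 3.72-fold for miR-503-5p to 7.44-fold for miR-450a-5p. MiR-424-3p ranked between 54 and 98 of 2588 names in the 4 lines and miR-503-5p between 57 and 93. MiR-424-5p moved from rank 76 in ES-2 to 149 in Huh-7, and miR-450a-5p from rank 188 in ES-2 to 103 in A-549.

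To describe how alike the members are, the line means of log2(normalised CPM + 1) of each member were centred on their own mean, and the root mean square difference between such profiles over the 4 lines was taken. It ranged from 0.14 to 0.33 among the 3 upstream members and from 0.27 to 0.29 among the 3 downstream members, but from 1.33 to 1.60 between an upstream and a downstream member. The median over all pairs of tested miRNAs was 1.94. When each member was set against the mean profile of the other members of its own group, it ranked 1 or 2 of 526 tested miRNAs in likeness to it, and an upstream member ranked between 196 and 238 of 525 against the downstream profile. The profiles rest on 4 lines and share the same libraries, so these values are a description.

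The mean profile of all 6 tested members averages 2 unlike groups. Outside of the cluster it was most similar to miR-550a-5p (0.08), followed by miR-96-5p (0.30), miR-195-5p (0.34), miR-21-5p (0.37) and miR-181a-5p (0.38). Taken apart, a choice made after these values were seen, the upstream profile was nearest to miR-30c-5p (0.16) and the downstream profile to miR-181d-5p (0.29).

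For comparison, other genomic clusters were formed from hairpins on one strand with gaps of up to 10 kb, keeping mature miRNAs that averaged 10 or more normalised CPM. This left 10 other clusters with at least 4 such miRNAs. The median difference between profiles within the cluster of miR-424, for this purpose 7 miRNAs with miR-450a-2-3p included, was 1.06 and ranked 11 of 11 from the most alike. The median over the other clusters was 0.59, with 0.27 for the cluster of miR-532-5p, also on the X chromosome, and 0.82 for the let-7e/125a/99b cluster as the next highest. In Huh-7 against ES-2, 1 other cluster (let-7e/125a/99b) had called miRNAs in both directions, and in A-549 against ES-2 none of the other 10 did. In the pairs in which the cluster of miR-424 did not have calls in both directions, other clusters did so in MV-3 against ES-2 (1 cluster), Huh-7 against MV-3 (1) and A-549 against MV-3 (2), and none in A-549 against Huh-7. These clusters and limits were chosen after the values of the members were seen, and no test was made of the rank.

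The ratio between the arms of MIR424 could not be distinguished between lines when replicate numbers were ignored. MiR-424-5p had 0.528 and 0.453 reads per read of miR-424-3p for ES-2, with MV-3 at 0.516 and 0.359, Huh-7 at 0.456 and 0.353, and A-549 at 0.579 and 0.456. The 3p arm was the more abundant in all 8 libraries. The ranges of the lines overlapped widely, with only Huh-7 and A-549 just apart (exact permutation p = 0.476, adjusted 0.556). The ratio was, however, lower in replicate 2 than in replicate 1 of every line. Within each replicate number the order of lines was A-549, ES-2, MV-3, Huh-7. The overlap and the exact p thus include a shift between replicate numbers, and equal ratios in all lines are not shown. The largest difference between line means was 0.36 ± 0.27 on the log2 scale (SE), against 3.71 ± 0.13 for the downstream to the upstream members. Among 36 hairpins with both arms at 10 or more library CPM in every line, this span ranked 2 from the smallest, where the median span was 0.85. MIR542 was sequenced almost only as its 3p arm, with 150 to 898 reads of miR-542-3p per line against 0 to 8 of miR-542-5p, so its arm ratio was not tested.

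The other arms of the remaining hairpins were rare. MiR-503-3p had 0 to 3 reads per line and miR-450b-3p none. MiR-450a-1-3p had 12 to 32 and miR-450a-2-3p 22 to 54 reads per line, and both were tested but did not differ between the 4 lines by limma (adjusted p = 0.257 and 0.295). In A-549 they averaged 11.6 ± 3.30 and 20.6 ± 16.02 normalised CPM (SD, n = 2). The 2 libraries behind the latter were far apart, at 9.23 and 31.9, and by library CPM miR-450a-2-3p was higher in Huh-7 (13.4) than in A-549 (12.3).

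Because miR-424-5p carries the seed of the miR-15/16 family, its share in the reads of that family was determined. It was 12.4% and 10.9% for ES-2, with MV-3 at 3.32% and 2.55%, Huh-7 at 1.996% and 1.766% and A-549 at 13.7% and 11.8%, with Wilson 95% intervals from 1.58% to 1.97% for the lowest library and from 12.9% to 14.5% for the highest. The shares in ES-2 and A-549 overlapped, and both lines were above MV-3 and Huh-7. The lines differed by an exact permutation test (p = 0.0381), but this was 0.0571 without ES-2 replicate 2. MiR-16-5p, the most abundant member of the family, held 61.1% to 70.4% on average and miR-15b-5p 22.8% to 32.3%. Reads of miR-16-5p were summed over its genomic copies, and intervals cover counting error only.

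None of the other family members moved as miR-424-5p did in the limma calls of Huh-7 against ES-2 or of A-549 against Huh-7. In Huh-7 against ES-2, where miR-424-5p fell by 2.50 on the log2 scale, miR-15a-5p was higher by 0.84 ± 0.18 (SE, limma adjusted p = 0.00643), and miR-16-5p (0.31 ± 0.07, 0.0104) and miR-15b-5p (0.07 ± 0.14, 0.71) did not pass. In A-549 against Huh-7, where miR-424-5p was higher by 2.18, miR-15a-5p (-1.19 ± 0.18, 0.00122) and miR-16-5p (-0.78 ± 0.07, 0.00014) were lower. With library size only, miR-16-5p (1.27, 9.22e-06) and miR-15b-5p (1.03, 0.000595) were also called higher in Huh-7 against ES-2. MiR-195-5p and miR-497-5p, which had 13 to 100 reads per line, were not called in any pair, although miR-497-5p, scaled by library size alone, was called lower in A-549 against MV-3 (-1.89, 0.0059) and against Huh-7 (-2.09, 0.00257). MiR-6838-5p was not tested. Of another miRNA cluster on the X chromosome, miR-106a-5p was not called in any pair of lines, with values between -1.06 and 0.36. Scaled by library size alone, it was called lower in A-549 against Huh-7 (-1.82, limma adjusted p = 0.00878). MiR-18b-5p, miR-20b-5p and miR-363-3p of that cluster had too few reads to be tested.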

How the data were processed

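Small RNA of 8 libraries was sequenced. Per the study's methods and the submitters' processing notes, reads were trimmed with cutadapt 1.14, aligned to hg38 with Bowtie2 2.3.2, counted on miRBase miRNAs with featureCounts 1.5.3 and normalised by TMM in edgeR 3.18.1. Use of strand and of multiply aligned reads is not given in the sources used here. The authors deposited a normalised signal per entry, 2813 entries in all. With a tolerance of 0.001, 100% of the values came out as whole reads times a constant of the library, so reads and TMM factors were recovered. Libraries of a line differed by more than sampling noise (chi-square per degree of freedom of 8.53 to 15.6).

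Entries of a name were summed. limma 3.58.1 (R 4.3.3) was fitted on log2(normalised CPM + 1) over all libraries, with 1 term per line, a mean-dependent prior and filterByExpr, leaving 528 miRNAs. This scale understates changes of low miRNAs. A call is an adjusted p below 0.01. The edgeR 4.0.16 quasi-likelihood test on the recovered reads called 138, 260, 204, 241, 213 and 282 miRNAs in the 6 pairs (MV-3, Huh-7 and A-549 against ES-2, Huh-7 and A-549 against MV-3, A-549 against Huh-7). Ratios used reads + 0.5 where both members had more than 3 reads in a library of every line, and were compared with exact permutation tests of the F ratio (threshold 0.05), which are two-sided by construction. Alternatives also included DESeq2 1.42.0, RLE size factors, library size only, other filters and pseudocounts, and leaving out each library. The fits were tested on simulated reads. The replicates were described as biological, but where nothing tells how they were grown, p-values measure only the spread between these libraries. Named miRNAs were the members, the other arms, the seed family, another X-linked cluster, the 5 most similar profiles and miR-21-5p. Members and lists were chosen with earlier results of these data known.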

Additional observations from a re-analysis of the deposited data

How the results depend on the processing

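With 2 libraries per line and 150 to 294 reads per tested downstream member in ES-2, small differences of these members could not be resolved. Of the fold changes of single members under the alternatives, 572 kept direction and call, 58 lost the call, 12 gained it and 6 changed sign. All 6 changes of sign came with library size only, for miR-503-5p (-0.10), miR-542-3p (-0.21) and miR-450b-5p (-0.39) in A-549 against Huh-7, and for miR-424-5p (0.22), miR-424-3p (0.32) and miR-503-5p (0.36) in Huh-7 against MV-3. All 6 tested members were called among the 4 lines under every alternative run. For Huh-7 against ES-2, 3 members were called in the fit of these 2 lines only, and 3 to 6 when libraries were left out one at a time, with the lowest count without Huh-7 replicate 1. For A-549 against ES-2, 3 were called without a filter, 3 in the fit of these lines only, and 3 whichever library was left out. For Huh-7 against MV-3, library size only gave 3 calls, no filter 0, a pseudocount of 0.1 gave 0, an adjusted p below 0.05 gave 2, and leaving out libraries 0 to 1. For A-549 against Huh-7, library size only gave 0, and leaving out libraries 3 to 6, with 3 without A-549 replicate 1. For A-549 against MV-3, library size only gave 4 and leaving out libraries 4 to 6. For MV-3 against ES-2, library size only and DESeq2 gave 4, with miR-542-3p added, and leaving out any library gave 3. Library size only gave 6 calls for A-549 against ES-2, with miR-424-5p added. The cause of these changes was not tested.

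When libraries were left out, the span between lines on the log2 scale was 3.60 to 3.83 for downstream to upstream members, 3.54 to 3.84 for miR-450a-5p to miR-424-5p, 3.81 to 4.33 for miR-542-3p to miR-424-5p, 0.73 to 0.89 for miR-503-5p to miR-424-5p and 0.53 to 0.89 for miR-450a-5p to miR-542-3p. The first pair lost their calls without Huh-7 replicate 1. Calls were gained for miR-503-5p to miR-424-5p without either MV-3 library, for miR-542-3p to miR-424-5p without MV-3 replicate 1 or either A-549 library, and for miR-450a-5p to miR-542-3p without MV-3 replicate 1. The span of the share of miR-424-5p in its seed family was 9.91 to 11.8 percentage points, and its call was lost without ES-2 replicate 2. The arm ratio of MIR542 had too few reads to be tested, so no alternatives were run for it.

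Replicate numbers are shared between lines. Over all tested miRNAs, the deviations of same-numbered libraries from their line means correlated at -0.05 to 0.232 between lines. The correlation was not above 0.1 in every pair, and not every library correlated best with those of its own number. The numbers were therefore not taken as a pairing in the main tests. Within the cluster, however, some ratios shifted with the number in every line. From replicate 1 to replicate 2, miR-424-5p to miR-424-3p fell, and miR-503-5p to miR-424-5p and miR-450b-5p to miR-450a-5p rose. The other tested ratios did not shift in the same direction in all lines. With the replicate number as a block, 2 members were called in Huh-7 against MV-3, and no other count of called members left its range of 1.5 times. With lines permuted within numbers, the smallest exact p is 0.0417, and the spans of 3.69 (miR-450a-5p to miR-424-5p) and 3.71 (downstream to upstream members) had an adjusted exact p of 0.0729.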
